A study of Mus musculus with 12 samples.

Results

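The cytosolic HSP90 machine and its heat shock partners were examined in mouse proximal tubule cells through 10 genes, chosen as chaperones that fold steroid receptors. All probes of the array whose platform symbol equals one of these genes were taken. Of the 10 genes, 8 had such a probe (13 of the 45281 probes), and 11 of the 13 probes passed the filter for detection. Hsp90ab1, the constitutive HSP90 isoform, and Hsf1, the heat shock transcription factor, were not named in the probe annotation used here and were not analysed here.

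The cells, PKSV-PCT, are immortalized and derive from mouse proximal convoluted tubules. Sublines carry human sex hormone-binding globulin (SHBG), a carrier of androgens and estradiol, either wild-type or as the S42L mutant, in which steroid binding was not detectable. Hormone was given at 100 nM for 24 h, either testosterone or its reduced form dihydrotestosterone (DHT). Expression was read on Illumina bead arrays, 3 in each of 4 groups, namely S42L with DHT, wild-type with DHT, S42L with testosterone and wild-type with testosterone. The labels add 3 days without steroid, worded as if they came after the hormone. All groups expressed an SHBG transgene from pRC/CMV, grew in medium with serum, insulin, EGF, triiodothyronine and dexamethasone, a ligand of the glucocorticoid receptor, and received an androgen, so that no group was without transgene or hormone. Cloning was by limiting dilution with a screen for secreted SHBG. With no separate clones of a variant named, the effect of the SHBG variant and that of the clone cannot be told apart. The labels do not say that replicates were separate cultures, so the spread behind each p-value is that between these samples and may be technical.

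In the textbook cycle, a newly made steroid receptor is first bound by HSP70 with a J-domain partner such as the HSP40 protein DNAJB1. The adaptor STIP1 (HOP) then passes it to HSP90, and the late complex holds p23 (PTGES3) and an immunophilin such as FKBP4 (FKBP52), in which form the receptor binds hormone with high affinity. HSP110 proteins, here HSPA4 and HSPH1, release ADP from HSP70, and HSF1 drives transcription of many of these genes through heat shock elements, repeats of the pentamer NGAAN in alternating orientation.

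The arrays had mean signals of 560.2 to 707.4 and detected 17314 to 19204 probes each (detection p under 0.05), and their number limits the precision. Replicates correlated at 0.9825 to 0.9951 over tested probes, lowest among wild-type testosterone arrays, in which replicate 3 had the lowest array weight of the 12 (0.216, on a scale where the typical array has 1) and replicates 1 and 2 had 5.038 and 0.379. The 6 DHT arrays shared chip 1, and the 6 testosterone arrays shared chip 2. On both chips the array labels end in A to C for S42L and in D to F for wild-type cells. Line and place on the chip therefore cannot be told apart. Of 15 proximal tubule markers named by the annotation, 9 were detected on all 12 arrays, among them Lrp2 (megalin), Hnf4a and Aqp1, whereas Cubn, Slc34a1, Slc5a1 and Slc22a6 were detected on 0. Over both androgens 8 of 10 tested tubule markers were lower and 0 higher in wild-type cells. Among all tested genes 20.6% were called lower and 19.5% higher in this comparison. The summed normalized signal of the tubule markers ran from 17016 to 23095 on S42L arrays and from 11186 to 13155 on wild-type arrays. Markers of other cell types differed between the lines as well. Of 6 tested distal nephron and collecting duct markers 3 were lower in wild-type cells (Umod, Scnn1a and Krt7) and 0 higher, with summed signals of 3426 to 4183 on S42L and 2880 to 3251 on wild-type arrays. The fibroblast sum was 1545 to 2484 on S42L and 180 to 232 on wild-type arrays, through Dcn (decorin). Dcn was lower (-4.79 ± 0.10 on the log2 scale, limma adjusted p = 2.08e-11). The other of the 2 tested fibroblast markers went the other way, at 0.53, and was not called. Pdgfra and Pdgfrb were detected on 0 arrays. Csf1r was lower (-0.995 ± 0.10, limma adjusted p = 1.23e-05) with Ptprc and Cd3e detected on 0, and the immune sum was 657 to 941 on S42L and 364 to 481 on wild-type arrays. The endothelial marker Kdr was higher, at least 1.25-fold (limma adjusted p = 0.0476), with Emcn detected on 0 and sums of 118 to 146 and 134 to 188. The part of these differences between the lines in the chaperone results was not tested.

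Between the lines, 4 of the 8 measured chaperone genes were higher in wild-type than in S42L cells over both androgens and 0 were lower. They were Hspa4, Hsp90aa1, Hsph1 and Fkbp4, by 1.48-, 1.43-, 1.26- and 1.24-fold, while Stip1, Dnajb1, Ptges3 and Hspa8 did not pass the test at the probe of highest signal. The test was limma over all 19480 tested probes with Benjamini-Hochberg adjustment, called at an adjusted p under 0.05, on 6 arrays against 6. Among all 10340 tested genes 19.5% were called higher and 20.6% lower, so the background is high. The median change of the 8 genes was 0.28 on the log2 scale against 0.005 for all tested genes. Under scaling of arrays by their medians the same 4 genes were called, and the median of all probes was at -0.076. In bulk RNA, fewer cells of a type and less RNA per cell cannot be told apart.

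**Figure D1:**
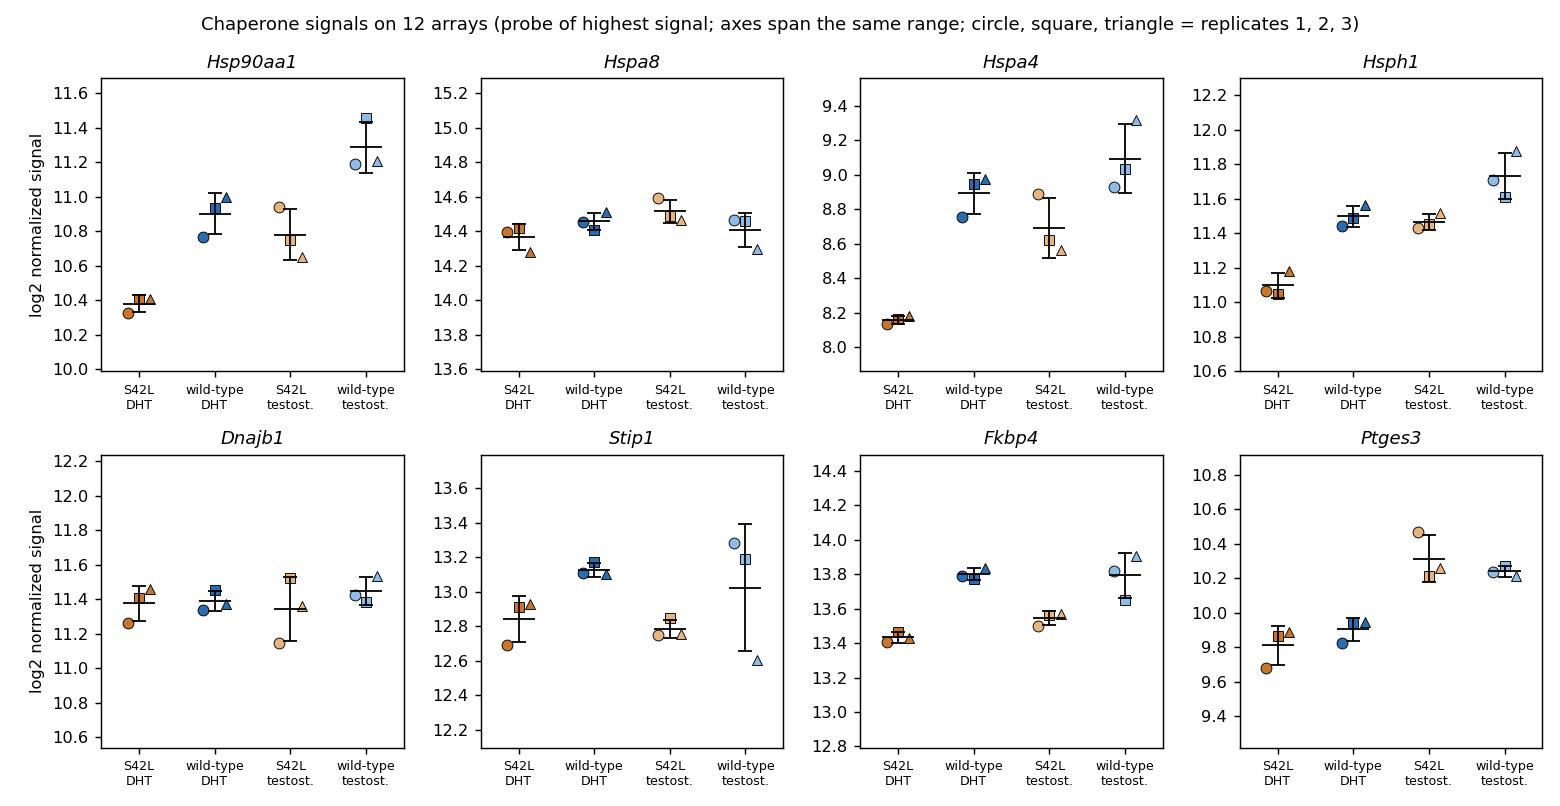
Log2 normalized signal (vertical axis, the same span in each panel) of the probe of highest signal for 8 chaperone genes on 12 arrays, with the group mean (bar) and SD (whiskers) of 3 arrays. Hsp90aa1, Hspa4 and Hsph1 were lowest in S42L cells with DHT and highest in wild-type cells with testosterone, Fkbp4 separated the lines, and Ptges3 separated the androgens.

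HSP90 itself was represented by Hsp90aa1, the stress-inducible cytosolic isoform, on chromosome 12 (chr12:110691036-110696395, GRCm38.p6). Its brightest probe had log2 normalized signals of 10.32, 10.41 and 10.41 in S42L cells with DHT and 10.77, 10.94 and 11.00 in wild-type cells with DHT. Under testosterone the values were 10.94, 10.75 and 10.65 in S42L cells and 11.19, 11.46 and 11.21 in wild-type cells. Within each androgen every wild-type array was above every S42L array, and S42L cells with testosterone overlapped wild-type cells with DHT. The change was 0.52 ± 0.12 (SE, limma adjusted p = 0.00639) under DHT and 0.51 ± 0.12 (limma adjusted p = 0.00755) under testosterone. The interaction, which is the change under DHT minus that under testosterone, was 0.01 ± 0.16 with a 95% confidence interval from -0.34 to 0.37.

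A second Hsp90aa1 probe, annotated to the same transcript, was dim but detected on all 12 arrays. It was higher in wild-type cells over both androgens by 0.72 ± 0.17 (limma adjusted p = 0.00473) and under testosterone by 0.79 ± 0.24 (limma adjusted p = 0.03), and stood at 0.65 ± 0.24 (limma adjusted p = 0.0663) under DHT. The third was detected on 2 of 12 arrays and was not tested. Probe sequences were not used here, so whether a probe also reads a related locus was not tested.

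At each gene's brightest probe, the HSP110 exchange factor Hspa4 (chr11:53259814-53300479) had the widest difference between the lines among the 8 genes over both androgens and under DHT. Under testosterone that of Hsp90aa1 was wider. Over both androgens the dim second Hsp90aa1 probe stood at 0.72 against 0.57 for Hspa4. S42L cells with DHT gave 8.13, 8.16 and 8.18, and wild-type cells with DHT 8.76, 8.95 and 8.97. With testosterone S42L cells gave 8.89, 8.62 and 8.56, and wild-type cells 8.93, 9.04 and 9.32. The groups did not overlap under either androgen, although under testosterone S42L replicate 1 stood just below the lowest wild-type array. The change was 0.73 ± 0.13 (limma adjusted p = 0.00137) under DHT and 0.40 ± 0.13 (limma adjusted p = 0.0362) under testosterone, and the interaction was 0.33 ± 0.18 (limma adjusted p = 1, 95% confidence interval -0.06 to 0.72). The testosterone call held in 15 of 22 alternatives, over which the adjusted p ran from 0.0121 to 0.373, the highest being with median scaling, where the change was 0.22. It also ended with all probes tested (adjusted p = 0.0557), with only the compared groups (adjusted p = 0.103), with the replicate block (adjusted p = 0.0546), and without S42L testosterone replicate 2 (adjusted p = 0.118) or 3 (adjusted p = 0.129) or wild-type testosterone replicate 3 (change 0.29, adjusted p = 0.0984). A second Hspa4 probe was detected on 0 arrays.

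Hsph1 (HSP105, chr5:149616843-149636498), the other HSP110 gene, followed the same order of groups. Its values were 11.06, 11.04 and 11.18 in S42L and 11.44, 11.48 and 11.56 in wild-type cells with DHT. With testosterone they were 11.43, 11.45 and 11.51 in S42L and 11.71, 11.61 and 11.88 in wild-type cells. Every wild-type array was above every S42L array of the same androgen. The change was 0.40 ± 0.10 (limma adjusted p = 0.0119) under DHT, where it passed, and 0.27 ± 0.10 (limma adjusted p = 0.0711) under testosterone, where it did not. These differ by 0.13 ± 0.14, so a difference between the androgens was not shown. Without wild-type DHT replicate 3 the DHT change was 0.37 (adjusted p = 0.0514), and with median scaling it was 0.40 (adjusted p = 0.0618).

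Fkbp4 (chr6:128430103-128438656), the immunophilin cochaperone, was the member in which all 6 wild-type arrays exceeded all 6 S42L arrays whichever androgen was given. S42L cells gave 13.40, 13.47 and 13.43 with DHT and 13.50, 13.56 and 13.57 with testosterone. Wild-type cells gave 13.79, 13.77 and 13.84 with DHT and 13.82, 13.65 and 13.91 with testosterone. Such separation upward was seen in 10.6% of all tested genes. The change was 0.31 ± 0.07 (limma adjusted p = 0.00306) over both androgens, 0.37 ± 0.09 (limma adjusted p = 0.0144) under DHT and 0.25 ± 0.09 (limma adjusted p = 0.0759) under testosterone. Without wild-type DHT replicate 3 the DHT change was 0.35 (adjusted p = 0.0554).

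Under DHT alone the members called were the same 4 genes, against 11.8% of all tested genes called higher and 13.3% lower. Under testosterone 2 were called, Hsp90aa1 and Hspa4, against 11.8% higher and 14.1% lower. Of the 8 genes, 5 under DHT and 4 under testosterone had every wild-type array above every S42L array, a separation found upward in 23.2% and 19.6% of all tested genes. No interaction passed among the 8 (0 at an unadjusted p under 0.05), where 0.00967% of all genes were called. The testosterone count depended on the setting and ran from 1 to 5 over the alternatives.

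**Figure D2:**
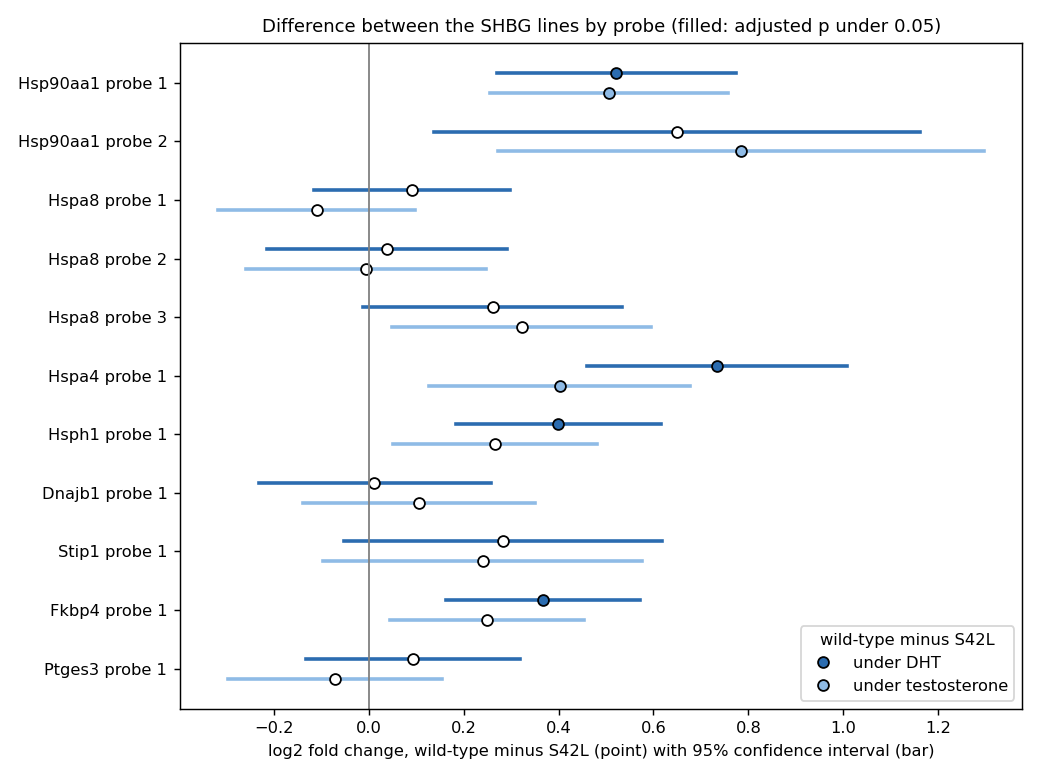
Log2 fold change of wild-type minus S42L cells (horizontal axis) for each of 11 tested probes under DHT and under testosterone, with the 95% confidence interval. Filled points passed the test. Intervals of Hsp90aa1 probe 1, Hspa4, Hsph1 and Fkbp4 lie above 0 under both androgens, and those of Dnajb1 and Ptges3 span 0.

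The bases before the RefSeq transcript starts of the member genes were read for the inverted pair of the heat shock element. This pair is spelled GAANNTTC (head to head) or TTCNNGAA (tail to tail). Each spelling is its own reverse complement, so a match holds for both strands, and the spellings may overlap. RefSeq windows (GRCm38.p6, 250 bases before the start) were found for 6 of the 10 genes, and not matched for Hsp90aa1, Hsp90ab1, Hspa8 and Hsf1. A match was present in 2 of the 6, Hsph1 and Fkbp4, and 14.55% of 27025 genes with a window hold at least 1. In Fkbp4 the match begins 151 bases before the start. In Hsph1 it begins 33 or 54 bases before the alternative starts, and it lies within the RefSeq gene span, so only 30 bases are shown. Hspa4 is shown because its difference over both androgens was the widest at the brightest probes and its window held no match. That says only that these letters are not there. Sequences run 5′ to 3′ on the transcribed strand (minus in all 3), with matches in capitals.
Fkbp4, chr6:128438657-128438906, minus strand: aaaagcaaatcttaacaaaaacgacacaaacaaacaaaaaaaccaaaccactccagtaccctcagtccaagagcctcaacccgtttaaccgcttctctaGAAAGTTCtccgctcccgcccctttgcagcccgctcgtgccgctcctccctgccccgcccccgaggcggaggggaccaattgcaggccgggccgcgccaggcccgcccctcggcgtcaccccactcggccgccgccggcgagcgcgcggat
Hsph1, chr5:149636351-149636380, minus strand: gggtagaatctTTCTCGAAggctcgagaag
Hspa4, chr11:53300480-53300729, minus strand: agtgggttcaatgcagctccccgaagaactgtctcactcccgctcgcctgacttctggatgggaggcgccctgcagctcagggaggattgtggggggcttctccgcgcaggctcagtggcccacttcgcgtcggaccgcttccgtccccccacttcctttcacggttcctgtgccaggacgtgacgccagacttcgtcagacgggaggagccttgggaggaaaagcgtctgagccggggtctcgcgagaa
The windows of Dnajb1, Stip1 and Ptges3 held no match either. Whether a match goes with the difference between the lines was not tested. A match is a description of the sequence and not evidence of binding.

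The other members were not called between the lines at their brightest probe. Stip1, the HSP70 to HSP90 adaptor on chromosome 19, gave 12.69, 12.91 and 12.93 in S42L and 13.11, 13.17 and 13.10 in wild-type cells with DHT. With testosterone it gave 12.75, 12.85 and 12.76 in S42L and 13.28, 13.19 and 12.60 in wild-type cells. Wild-type testosterone replicate 3 thus stood below every S42L array, while the other 5 wild-type arrays stood above all 6. The change over both androgens was 0.26 ± 0.11 (limma adjusted p = 0.0781, 95% confidence interval 0.02 to 0.50). Without that array it was 0.37 (adjusted p = 0.00144), and over the 21 alternatives the adjusted p ran from 0.00116 to 0.173.

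Ptges3 (p23, chromosome 10) gave nearly the same level in both lines. The change over both androgens was 0.01 ± 0.07 (limma adjusted p = 0.924), with a 95% confidence interval from -0.15 to 0.17. Dnajb1 (HSP40, chromosome 8), a gene strongly induced by heat, had a change of 0.06 ± 0.08 (limma adjusted p = 0.6, interval -0.11 to 0.23). Its 12 arrays ran from 11.15 to 11.54, both extremes being among testosterone arrays, and its groups overlapped in every comparison.

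Hspa8, the constitutive HSP70 (HSC70) on chromosome 9, was read by 3 bright probes that did not give 1 answer. Probe 1, the brightest, had a change of -0.01 ± 0.07 (limma adjusted p = 0.926) over both androgens and probe 2 of 0.02 ± 0.08 (limma adjusted p = 0.897). Probe 3 was higher in wild-type cells by 0.29 ± 0.09 (limma adjusted p = 0.0209). On probe 3 S42L cells gave 12.77, 13.08 and 13.02 with DHT and 13.09, 13.15 and 13.38 with testosterone. Wild-type cells gave 13.16, 13.19 and 13.30 with DHT and 13.40, 13.47 and 13.71 with testosterone. The lines did not overlap within either androgen on this probe, and they did on both other probes. Its order of groups, S42L DHT lowest and wild-type testosterone highest, is that of Hsp90aa1, Hspa4 and Hsph1. All 3 probes are annotated to the same transcript, and which part of it each one reads was not analysed here.

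**Figure D3:**
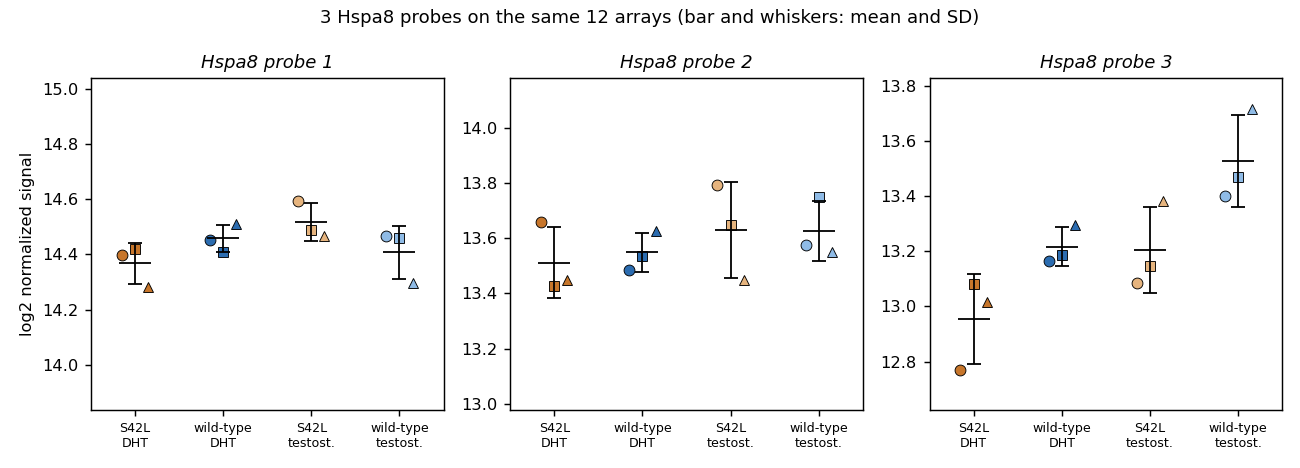
Log2 normalized signal (vertical axis) of the 3 Hspa8 probes on the same 12 arrays, by group, with mean and SD. Probe 3 is lowest in S42L with DHT (mean 12.96) and highest in wild-type with testosterone (mean 13.53), and on probes 1 and 2 the lines overlap within each androgen.

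Between the androgens, no member passed the test within a line, although for several genes the DHT arrays did not overlap the testosterone arrays of the same line. DHT and testosterone arrays lay on different chips, so androgen and chip cannot be told apart in any of these values. In wild-type cells 0 of 8 were called (3 at an unadjusted p under 0.05), against 0.0677% of all tested genes. In S42L cells 0 of 8 were called (4 at an unadjusted p under 0.05), against 0.280% of all genes. Settings moved the S42L count from 0 up to 4, which is the number called without background correction.

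Ptges3 showed the clearest split by androgen. Its values with DHT were 9.68, 9.86 and 9.89 in S42L and 9.83, 9.94 and 9.95 in wild-type cells. Those with testosterone were 10.47, 10.21 and 10.26 in S42L and 10.24, 10.27 and 10.21 in wild-type cells. All 6 DHT arrays were below all 6 testosterone arrays, as in 0.909% of all tested genes. DHT minus testosterone was -0.50 ± 0.10 (limma adjusted p = 0.0648) in S42L cells and -0.34 ± 0.10 (limma adjusted p = 0.213) in wild-type cells. For Hsp90aa1 it was -0.40 ± 0.12 (limma adjusted p = 0.15) and -0.39 ± 0.12 (limma adjusted p = 0.202), with no overlap of groups in either line. Hspa4 stood at -0.53 ± 0.13 (limma adjusted p = 0.0933) in S42L and -0.20 ± 0.13 (limma adjusted p = 0.564) in wild-type cells, and Hsph1 at -0.37 ± 0.10 (limma adjusted p = 0.126) and -0.24 ± 0.10 (limma adjusted p = 0.37). Every DHT array was below every testosterone array for 6 of 8 members in S42L cells and 3 of 8 in wild-type cells, a separation found downward in 12.2% and 7.41% of all tested genes.

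**Figure D4:**
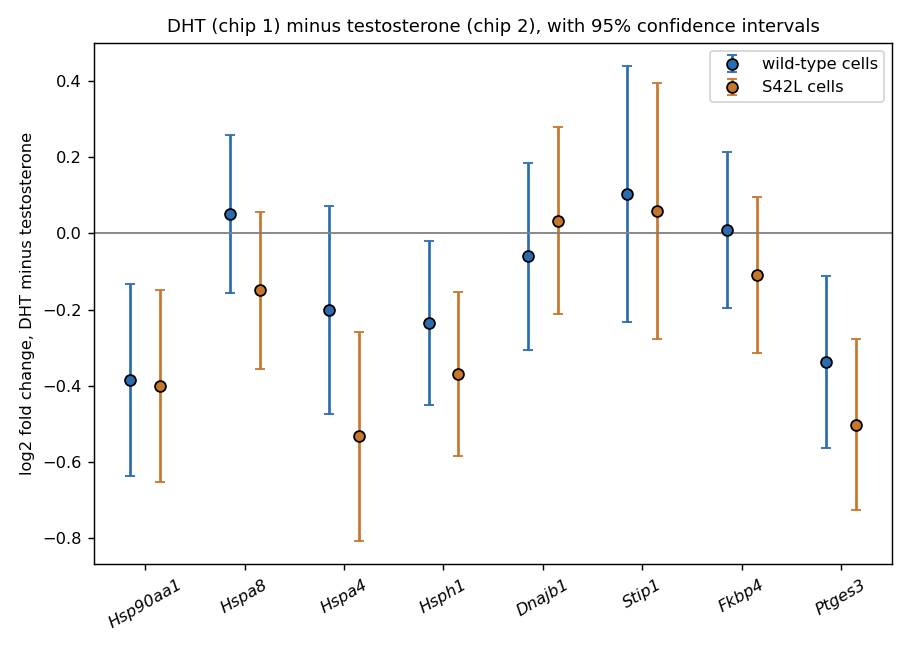
Log2 fold change of DHT minus testosterone (vertical axis) for 8 chaperone genes in each line, with 95% confidence intervals. The intervals of Hsp90aa1, Hsph1 and Ptges3 lie below 0 in both lines and that of Hspa4 in S42L cells, yet none passed adjustment over all probes, and androgen and chip cannot be told apart.

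Averaged over the lines, a comparison added after the values by line had been seen, 4 of 8 were called lower with DHT and 0 higher. Among all genes 2.28% were called lower and 1.09% higher. These were Ptges3 at -0.42 ± 0.07 (limma adjusted p = 0.0133), Hsp90aa1 at -0.39 ± 0.08 (limma adjusted p = 0.0245), Hsph1 at -0.30 ± 0.07 (limma adjusted p = 0.0346) and Hspa4 at -0.37 ± 0.09 (limma adjusted p = 0.0423). Fkbp4 stood at -0.05 ± 0.07 (limma adjusted p = 0.737) and Dnajb1 at -0.01 ± 0.08 (limma adjusted p = 0.951). Of the 10 tested proximal tubule markers 4 were lower in the same comparison (Aqp1, Cldn2, Pax8 and Hnf4a) and 0 higher, and of 2 tested fibroblast markers Dcn was higher with DHT (0.43 ± 0.10, limma adjusted p = 0.0425). The part of these markers in the result was not tested. Leaving out single arrays gave 1 to 4 called members. The count fell to 1 without wild-type DHT replicate 1 or S42L testosterone replicates 1 or 2, and to 2 without any of S42L DHT replicates 1 to 3, wild-type DHT replicates 2 or 3, or S42L testosterone replicate 3.

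Other chaperone lists were compared with the 8 genes by their counts over both androgens, against the background of 19.5% of genes higher and 20.6% lower. The cytosolic chaperonin CCT, which folds actin and tubulin, and its partner prefoldin had 6 of 13 tested genes higher and 0 lower, with a median of 0.18. Cct2 (0.47 ± 0.10, limma adjusted p = 0.00361), Cct7 (0.47 ± 0.13, limma adjusted p = 0.0129) and the prefoldin subunit Pfdn4 (0.38 ± 0.09, limma adjusted p = 0.00411) were the highest. Heat shock factors and regulators had 2 higher and 1 lower of 10, with a median of 0.18. The kinases Camk2d (0.70 ± 0.09, limma adjusted p = 1e-04) and Plk1 (0.39 ± 0.12, limma adjusted p = 0.0279) were higher and Hsbp1, which binds HSF1, lower (-0.31 ± 0.07, limma adjusted p = 0.00512).

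The list of HSP90 cochaperones outside the 10 genes, which also holds Trap1, itself an HSP90, had 2 higher and 3 lower of 30. The other 25 were not called, and the median was 0.03. Ppid, the cyclophilin of receptor complexes (0.46 ± 0.07, limma adjusted p = 0.000239), and Cdc37l1 (0.39 ± 0.09, limma adjusted p = 0.0047) were higher. Tsc1 (-0.58 ± 0.14, limma adjusted p = 0.00465), Nudc (-0.47 ± 0.09, limma adjusted p = 0.0016) and Flcn (-0.28 ± 0.08, limma adjusted p = 0.0169) were lower. Fkbp5, an immunophilin that competes with FKBP4 for HSP90, had a change of -0.01 ± 0.08 (limma adjusted p = 0.924), and Ahsa1, which stimulates the ATPase of HSP90, of 0.07 ± 0.07 (limma adjusted p = 0.492). Fkbp5 and Ahsa1 were picked for their role after the values had been seen.

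The list of the HSP70 family and its exchange factors, which also names the HSP90 gene Hsp90b1, had 3 higher and 2 lower of 14. The other 9 were not called, and the median was 0.04. Bag5 (0.43 ± 0.08, limma adjusted p = 0.00074), the mitochondrial HSP70 Hspa9 (0.39 ± 0.07, limma adjusted p = 0.000898) and St13, the HSP70-interacting protein HIP (0.28 ± 0.08, limma adjusted p = 0.0185), were higher. Hspa2, an HSP70 abundant in testis, was lower by far more than any member moved (-1.59 ± 0.10, limma adjusted p = 2.46e-07), and Bag6 was lower too (-0.33 ± 0.08, limma adjusted p = 0.00701). The heat-inducible HSP70 genes Hspa1a and Hspa1b were detected on 2 and 0 of 12 arrays and were not tested.

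J-domain proteins had 3 higher, 7 lower and 15 not called of 25, with a median of -0.05. Dnajc2 (0.40 ± 0.09, limma adjusted p = 0.00252), Dnajb2 (0.38 ± 0.10, limma adjusted p = 0.00918) and Dnaja2 (0.30 ± 0.09, limma adjusted p = 0.0153) were higher. Dnajc28 (-1.78 ± 0.14, limma adjusted p = 1.04e-06, detected on 3 of 6 wild-type arrays) and Dnajc16 (-0.60 ± 0.08, limma adjusted p = 0.000128) were lower, as was Dnajc1, at least 1.20-fold (limma adjusted p = 0.03), since it was undetected on all arrays of a wild-type group. For this bound each array of the dim line counted at its own value or at that of the dimmest detected probe, whichever was higher. Small heat shock proteins and mitochondrial chaperonins had 3 higher, 3 lower and 6 not called of 12, with a median of 0.06. The mitochondrial protease Lonp1 (0.78 ± 0.10, limma adjusted p = 5.63e-05), the chaperonin Hspd1 (0.34 ± 0.07, limma adjusted p = 0.00327) and Hspb2 (0.24 ± 0.07, limma adjusted p = 0.0242) were higher. The small heat shock proteins Hspb8 (-0.94 ± 0.11, limma adjusted p = 2.49e-05), Hspb1 (-0.60 ± 0.11, limma adjusted p = 0.000732) and Cryab (-0.22 ± 0.07, limma adjusted p = 0.0235) were lower.

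**Figure D5:**
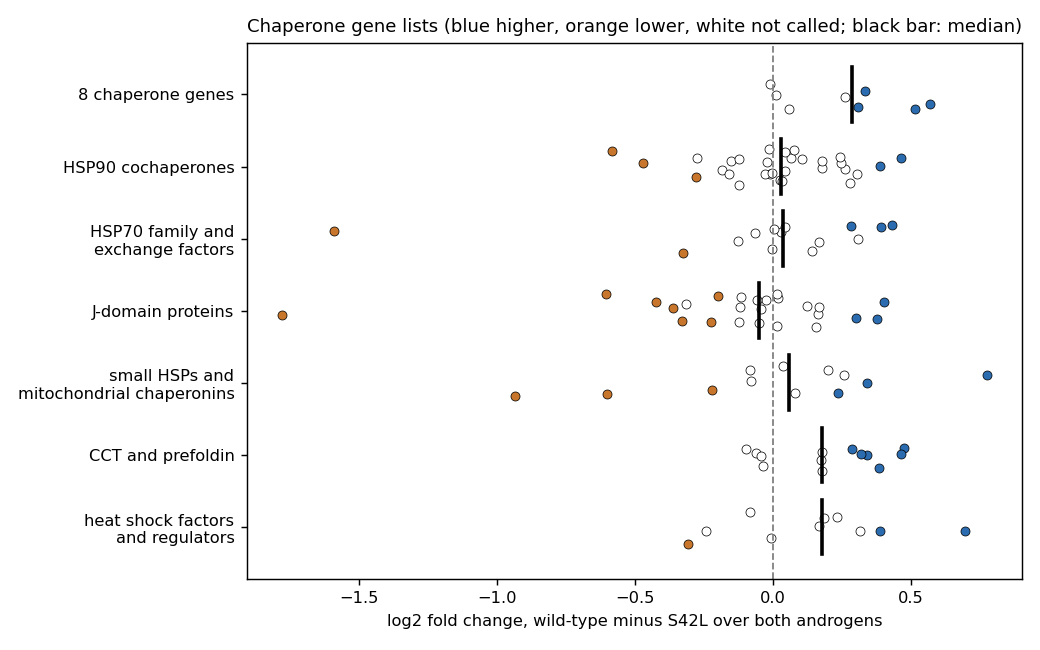
Log2 fold change of wild-type minus S42L cells over both androgens (horizontal axis) for each tested gene of 7 chaperone lists, with the list median as a black bar and the vertical scatter without meaning. The 8 chaperone genes (median 0.28) and CCT with prefoldin hold no gene called lower. Small heat shock proteins with mitochondrial chaperonins hold 3 higher and 3 lower of 12. The lowest values are those of Dnajc28 (-1.78) and Hspa2 (-1.59).

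Over both lines, the androgen comparison called 1 of 30 in the HSP90 cochaperone list and 2 of 14 in the HSP70 list lower. It also called 1 of 13 CCT and prefoldin genes and 1 of 10 heat shock factors and regulators lower. It called 0 of 25 J-domain proteins, 0 of 12 small heat shock proteins and mitochondrial chaperonins, and 0 higher in any list. Among all genes 2.28% were called lower and 1.09% higher. The list genes called were Ywhae, a 14-3-3 protein (-0.76 ± 0.11, limma adjusted p = 0.00931), Rpap3 (-0.62 ± 0.12, limma adjusted p = 0.016) and Cct7 (-0.57 ± 0.13, limma adjusted p = 0.0308). The ER chaperone Hspa5 (-0.56 ± 0.11, limma adjusted p = 0.0188) and St13 (-0.53 ± 0.08, limma adjusted p = 0.0103) were the others, and all were lower with DHT. Within S42L cells the test called Hspa5 (-0.88 ± 0.16, limma adjusted p = 0.0438), 1 of 14 in its list, against 0.280% of all tested genes. Within wild-type cells it called Ywhae (-1.01 ± 0.16, limma adjusted p = 0.0483), 1 of 10 in its list, against 0.0677% of all tested genes. As for the members, androgen and chip cannot be told apart here. Of 5 steroid receptors examined here, Nr3c1 was detected on 2 of 12 arrays, Nr3c2 and Esr1 on 1 each and Pgr and Esr2 on 0, and none was tested.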

How the data were processed

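RNA of 12 samples was hybridised to 1 array each. Per the file headers, the deposited table gives for every probe an average bead signal, which is an intensity, and a detection p-value. Per the submitters' processing notes BeadStudio was used; its version is not given. The authors' second deposited table of processed intensity values, whose minimum was -30.1 and whose columns had a rank correlation of 1.000 with their own arrays' signals, was an alternative (floor 16). Its method is not given.

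Background was estimated through the detection p-values and removed (offset 16), and signals were quantile-normalized and turned to log2 values from the deposited signals by limma's neqc (limma 3.58.1, R 4.3.3). That step removes a shift of most transcripts in 1 direction. A probe was tested if 3 or more of the 12 arrays detected it (p below 0.05), which held for 19480 of 45281. lmFit and eBayes had 1 coefficient per group (8 residual and 4.32 prior degrees of freedom). The 6 two-sided contrasts set wild-type against S42L cells (DHT, testosterone, their mean), set DHT against testosterone (wild-type, S42L), and gave the interaction. A further two-sided contrast, DHT against testosterone over both lines, was added to the same fit after the values by line had been seen. A gene took its tested probe of highest mean signal. Symbols came from the platform annotation (34885 probes with 1 symbol, 18 with several, 10378 with none here). 95% confidence intervals reached, in the median, 0.223 to either side over both androgens, 0.316 within 1 androgen or line and 0.446 for the interaction.

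The members, lists and tests were chosen with earlier results of these data known. All members are named, and of each other list the 3 highest and 3 lowest called genes over both androgens, with up to 2 called genes per list for the androgen contrasts and the interaction. The fit was tested on simulated data with independent noise and changes larger than those of the members, so that test does not cover changes of their size. Alternatives were other scaling, background, offset, filters, array weights, probe rule, the authors' values, fits on the compared groups only, a replicate block and leaving out each array. Same-numbered arrays of different groups correlated, as deviations from group means, at -0.047 to 0.121, and differently numbered ones at -0.132 to 0.110. That gave no sign that the numbers pair the samples, though it cannot exclude a pairing.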

Additional observations from a re-analysis of the deposited data

How the results depend on the processing

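Over both androgens, 4 to 5 members were called higher under all 21 alternatives (0 lower), the same 4 in each, and Stip1 was the fifth where 5 were called. No called change reversed its sign under any alternative. Under DHT the count was 3 to 4 over 10 settings and 2 to 5 when single arrays were left out, with 2 without wild-type DHT replicate 3, where Hsph1 and Fkbp4 missed the threshold.

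Under testosterone the count of 2 became 1 with median scaling, with all probes tested, with only the compared groups and with the replicate block, 4 without background correction and 5 with array weights, and ran from 1 to 4 when single arrays were left out (1 without S42L testosterone replicate 2 or 3, 4 without wild-type testosterone replicate 2). For DHT minus testosterone in S42L cells the count of 0 became 4 without background correction, 2 with offset 50, 1 with probes detected on all 12 arrays and 3 with array weights, and 0 to 2 without single arrays (2 without wild-type testosterone replicate 3). In wild-type cells it became 2 with array weights. The mean over both lines, added later, gave 3 to 4 called members over 9 settings and 1 to 4 without single arrays. The cause was not tested for any of these. The interaction count was 0 throughout.

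With the replicate number as a block, the counts were 4 over both androgens, 4 under DHT, 1 under testosterone (Hsp90aa1, the call of Hspa4 being lost at an adjusted p = 0.0546) and 0 in each line's androgen comparison and in the interaction, and only 3 of 12 arrays correlated best with an array of their own number in another group. Over all genes, array weights, which give wild-type testosterone replicate 1 a weight of 5.038 against 0.379 and 0.216 for the other replicates of that group, moved the calls of DHT minus testosterone from 7 to 877 in wild-type and from 29 to 327 in S42L cells, and no background correction moved them to 35 and 196. Other settings gave 0 to 26 and 3 to 121, and single arrays left out 1 to 5 and 1 to 105. Interaction calls (1 gene) ran from 0 to 14. Under testosterone array weights gave 4917 genes in place of 2678. Over both lines the androgen calls (349) became 1377 with array weights, 612 without background correction and 529 with offset 50, and 119 to 627 without single arrays.

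Dim probes lie near background, where folds can be compressed. The dim second Hsp90aa1 probe, however, had a wider change than the brightest over both androgens (0.72 against 0.51), with a larger SE (0.17 against 0.08).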

Other observations

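Across the 12 arrays, the genes whose log2 signal ran most like that of Hsp90aa1 were Abhd17b (Pearson r = 0.980), Larp4 (0.969), Atp6v1c1 (0.963), Eif3c (0.963) and Kpna2 (0.956), and those most opposite were Pcyt1a (-0.965), Kif3a (-0.965), Nfix (-0.952), Naa35 (-0.942) and Shox2 (-0.941). The arrays share chip, line and androgen, so these values describe a common order of groups. Among the members, Hsp90aa1 correlated with Hspa4 at 0.923 and with Hsph1 at 0.875 over the 12 arrays, and with deviations from the group means at 0.484 and -0.304. In the same order, Hsp90aa1 gave 0.718 and -0.574 with Fkbp4, 0.629 and 0.731 with Ptges3, and 0.412 and 0.240 with Stip1. It gave 0.234 and 0.446 with Hspa8, and 0.161 and -0.331 with Dnajb1.

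The mean over the 8 genes of each array's deviation from the gene's average over 12 arrays was -0.32, -0.22 and -0.22 on the S42L DHT arrays and 0.001, 0.08 and 0.10 on the wild-type DHT arrays. It was 0.03, -0.003 and -0.04 on the S42L testosterone arrays and 0.20, 0.20 and 0.18 on the wild-type testosterone arrays.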
